A study of Homo sapiens with 120 samples.

Results

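Microrafts that carried 2 CFPAC-1 cells were compared with microrafts that carried 1 cell. They make up 20 of the 120 RNA sequencing libraries of the series, chosen by the labels for isolation method and cell number: 10 rafts with 2 cells and 10 rafts with 1 cell. Each of these groups held 5 rafts of a first round and 5 of a second round, told apart by their column names. Those names do not say which steps a round covered. CFPAC-1 is an established human line from a pancreatic ductal adenocarcinoma, and all 20 rafts held untreated cells with no score for proliferation. A microraft is a tiny polystyrene plate at the bottom of a culture well, and a chosen raft can be lifted from its array with the cells growing on it. Their cDNA was made with the SMARTer kit and their libraries with Nextera XT.

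A single mammalian cell holds little messenger RNA, many genes are present as a few copies, and reverse transcription copies only some of them into cDNA. A gene of low level can therefore be missed in a library from 1 cell. Transcription also runs in bursts, and cells of a culture stand at different points of the cell cycle, so single cells differ from each other more than pools do. Epithelial cells that touch are joined by cadherin junctions, tight junctions and desmosomes, exchange small molecules through gap junctions, and signal through Notch receptors and the Hippo kinases, which hold the coactivator YAP out of the nucleus. The labels do not say whether the cells of a 2-cell raft touched.

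The deposited values are FPKM, fragment counts scaled to transcript length and to the library's total, so each is a share of its library and does not grow with the amount of RNA alone. Differences were taken on log2(FPKM + 1) as 2-cell rafts minus 1-cell rafts within each round and then averaged over both rounds, a scale that understates the change of low genes. Detection means an FPKM of at least 1, and a gene was compared when at least 5 of the 20 rafts detected it. Each library is 1 raft and no label names a culture, so each group counts as 1 sample. No test was made, and an SD here measures the spread between rafts. A gene was called higher or lower by size alone, at an averaged log2 difference of 1 or more in either direction with the same sign in both rounds.

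The rafts carried the markers of a ductal epithelium. The keratin gene KRT8 stood between 777 and 1337 FPKM in 2-cell rafts (median 966), against 523 to 1921 FPKM in 1-cell rafts (median 850.4). EPCAM, an adhesion molecule of epithelial cells, ranged over 242 to 568 FPKM in 2-cell rafts, against 80.97 to 604 FPKM in 1-cell rafts. Both genes were detected in all 20 rafts, and their ranges overlapped. Of the markers of other cell types, 6 of 9 for fibroblasts, 4 of 8 for blood, 4 of 6 for endothelium, 5 of 9 for keratinocytes and 6 of 7 for acinar and endocrine cells were listed at 0 in all 20 rafts. The summed fibroblast markers ranged over 13.2 to 88.7 FPKM in 2-cell rafts, against 0 to 123 FPKM in 1-cell rafts. Nearly all of that was PDGFRA, at a mean of 21.9 FPKM in the bulk CFPAC-1 libraries. The summed blood markers ranged over 22.6 to 114 FPKM in 2-cell rafts, against 0 to 166 FPKM in 1-cell rafts, mostly CD68, which bulk RNA held at 29.7 FPKM. PTPRC, the common leukocyte antigen, was listed at 0 in the 10 two-cell rafts and reached 2.49 FPKM in 1 one-cell raft. The endothelial sum stayed at or below 0.72 FPKM in 2-cell rafts, against at most 9.10 FPKM in 1-cell rafts. Summed keratinocyte markers ranged over 106 to 357 FPKM in 2-cell rafts, against 108 to 407 FPKM in 1-cell rafts, nearly all KRT10 and DMKN, which bulk RNA held at 140.4 and 137 FPKM. DMKN and PDGFRA met the size rule for higher, at 1.85 and 1.34.

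The table holds no counts, so the depth of each raft is unknown, and column totals of 575875 to 750263 FPKM over the 20 rafts do not give it. A rough substitute is the low end of the values, the 10th percentile of length-scaled FPKM in genes with 1 annotated transcript, which is higher in a shallower library. In round 1 it averaged 1.39 ± 0.495 in 2-cell rafts and 1.40 ± 0.760 in 1-cell rafts (length-scaled FPKM, SD, n = 5 each). In round 2 it averaged 3.73 ± 0.795 in 2-cell rafts and 6.92 ± 3.53 in 1-cell rafts. The library indexes also differ by cell number in round 2, where each group used 1 second index and none was shared, while in round 1 each group used 2 and 1 was shared. In round 2 cell number and library index therefore cannot be told apart. Empty rafts of round 1 gave 1060 to 1301 detected genes and those of round 2 gave 9 to 41, while 7 water libraries gave 81 to 2097.

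Rafts with 2 cells held more detected genes than rafts with 1 cell in both rounds. They averaged 8833 ± 1078 genes in 2-cell rafts and 6773 ± 1437 in 1-cell rafts (SD, n = 10 each), an averaged difference of 2059.5 genes. In round 1 the counts were 9617, 9772, 9527, 9761 and 9539 in 2-cell rafts, against 8217, 8447, 7655, 8461 and 7579 in 1-cell rafts. In round 2 they were 7858, 8727, 6416, 8832 and 8278 in 2-cell rafts, against 5609, 6127, 5194, 4804 and 5639 in 1-cell rafts. The groups did not overlap in either round. The difference was 1571 genes in round 1, where the low-value scales were alike, and 2548 genes in round 2. The pooled SD between rafts of a kind was 592 genes. For scale, the 4 bulk libraries held 8570 to 10581 genes.

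The gain in detection lay in genes of low and middle level. At a floor of 20 FPKM the means were 3615 ± 163 genes in 2-cell rafts and 3555 ± 262 in 1-cell rafts, a difference of 60.6 genes that is smaller than the pooled SD between rafts of 199.8. At a floor of 5 FPKM the difference was 996 genes. Among 4134 genes at 1 to 5 FPKM in bulk RNA, 57.8% ± 1.70 were detected in 2-cell rafts and 42.8% ± 3.62 in 1-cell rafts of round 1 (SD, n = 5 each). In round 2 the same class gave 41.4% ± 9.12 in 2-cell rafts and 21.0% ± 3.67 in 1-cell rafts. The gain in percentage points was largest among 3325 genes at 5 to 20 FPKM in bulk, 16.02 in round 1 and 27.6 in round 2. Among 2152 genes at 20 to 100 FPKM it was 7.98 in round 1 and 17.8 in round 2. Among 1156 genes at 100 FPKM or more in bulk, round 1 gave 99.6% in 2-cell rafts and 97.9% in 1-cell rafts, and round 2 gave 99.2% in 2-cell rafts and 94.5% in 1-cell rafts. In all, 4113 genes were detected in each of the 10 two-cell rafts, against 1843 genes in each of the 10 one-cell rafts.

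**Figure D1:**
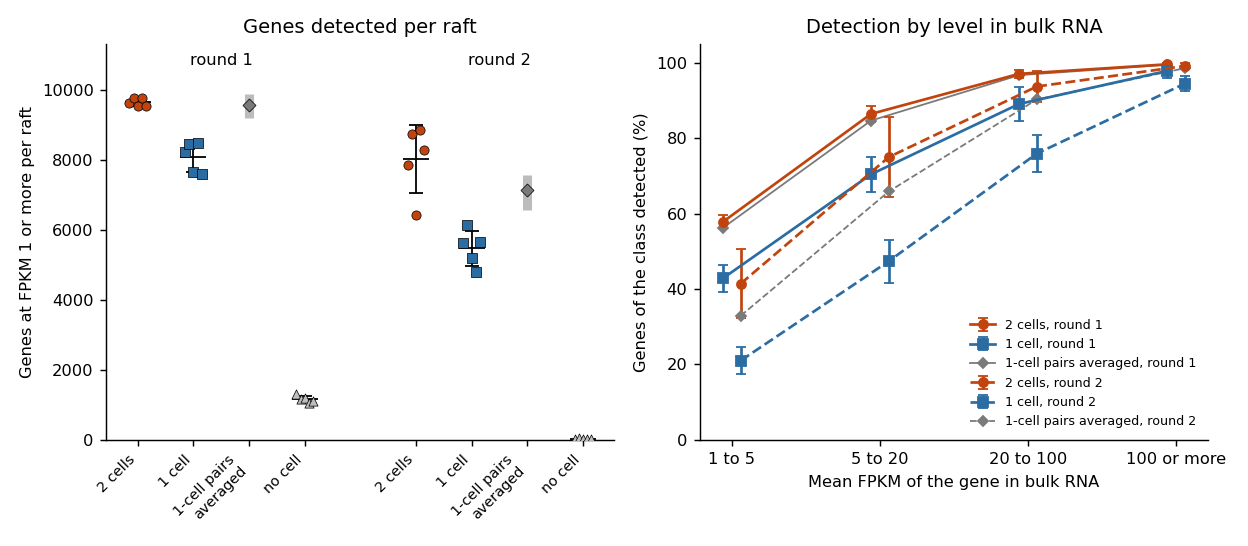
Left, genes at FPKM 1 or more in each raft by round (points, 5 rafts a group; bars, mean and SD; grey diamond and band, mean and range over 10 averaged pairs of 1-cell rafts). Right, percentage of genes detected by their mean FPKM in bulk RNA (mean and SD over 5 rafts; solid lines round 1, dashed lines round 2). The 2-cell rafts lie above the 1-cell rafts in both rounds, 9643 against 8072 genes in round 1 and 8022 against 5475 in round 2, and the gap narrows in genes at 100 FPKM or more.

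Averaged pairs of 1-cell rafts offer a second comparison, although each pair draws on 2 libraries and a 2-cell raft on 1. The FPKM of every pair of 1-cell rafts of a round was averaged, giving 10 pairs a round that share rafts and are no replicates. Such pairs averaged 9557 genes in round 1, against which 2-cell rafts held 86.4 genes more, and 7139 genes in round 2, against which 2-cell rafts held 883 more. In round 1 the 2-cell rafts lay inside the range of the pairs, 9192 to 9861 genes. In round 2 the pairs ranged over 6572 to 7563 genes, and 4 of the 5 two-cell rafts were above that range and 1 below it. The sign of this comparison depended on the detection floor. For values above 0, 2-cell rafts minus pairs gave -937.1 genes in round 1 and 924.1 in round 2. At 5 FPKM it gave -60.5 in round 1 and 298.8 in round 2, and at 20 FPKM 8 and -54.5. Averaging pairs before the log also raises the level of any gene found in only 1 cell of the pair.

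Profiles of 2-cell rafts were closer to bulk RNA and to each other. Spearman's rho with the mean bulk profile, across 10767 genes at 1 FPKM or more in bulk, averaged 0.765 ± 0.034 in 2-cell rafts and 0.660 ± 0.044 in 1-cell rafts (SD, n = 10 each). The difference of 0.105 compares with a pooled SD between rafts of 0.039, and it was 0.098 in round 1 and 0.112 in round 2. Averaged pairs of 1-cell rafts gave 0.738. Between rafts of the same kind, rho averaged 0.775 over the pairs of 2-cell rafts and 0.626 over the pairs of 1-cell rafts in round 1, and 0.732 over 2-cell rafts and 0.574 over 1-cell rafts in round 2. These values are across genes, which are not independent replicates, and rho falls with detection.

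Genes found in every raft also varied less between 2-cell rafts. For the 1779 genes detected in all 20 rafts, the median within-round SD of log2(FPKM + 1) was 0.52 in 2-cell rafts and 0.87 in 1-cell rafts, a ratio of 0.603. The SD was smaller in 2-cell rafts for 1540 of these genes, 86.6%. The squared coefficient of variation of FPKM, a measure that falls when independent cells are pooled, had a median ratio of 0.44 between 2-cell and 1-cell rafts. Levels of whole gene lists showed this less uniformly. The SD of a list's mean log2 level was smaller in 2-cell rafts for 13 of 19 lists in round 1 and for 14 of 19 in round 2. Ribosomal protein genes had an SD of 0.23 in 2-cell rafts and 0.58 in 1-cell rafts in round 1, and of 0.12 in 2-cell rafts and 0.15 in 1-cell rafts in round 2.

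Over all 10660 genes compared, most stood higher in 2-cell rafts, and 2044 met the size rule for higher and 129 for lower. These are 19.2% and 1.21% of the genes compared, the background against which every count of called list members is read. The median difference was 0.40, with 0.29 in round 1 and 0.50 in round 2, and 7998 genes (75.03%) were above 0. Against averaged pairs of 1-cell rafts the median was 0.06, and 854 genes (8.01%) met the rule for higher and 537 (5.04%) for lower. Because averaging before the log can only lower the difference, the 854 lie within the 2044 and the 129 within the 537 by construction. Among the 1779 genes detected in all 20 rafts the median was 0.11, with 20 higher and 12 lower. With the number of genes detected per raft as a covariate beside round, the median over all genes turned to -0.06. The counts were then 2062 higher and 2391 lower, but by size alone. The covariate fit gives 1 difference over both rounds, so the same-sign condition drops out and these counts are not like for like with 2044 and 129. Detected genes separate the groups completely within each round, so cell number and detection can hardly be told apart, and that fit is named hereafter only where it turns a direction.

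Single genes moved in the same direction in both rounds little more often than not. The sign agreed for 5996 genes (56.2%), and Pearson's r between the differences of round 1 and round 2 was 0.07 across genes. Of 2281 genes at 1 or more in round 1 and 3345 in round 2, 913 reached it in both. On the low side 571 genes were at -1 or less in round 1 and 509 in round 2, and 40 were in both. The size threshold separates close neighbours: FBRS at 1.0002 was called and FBXO30 at 0.9998 was not, and FAM178A at -1.009 was called while CASD1 at -0.9989 was not.

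**Figure D2:**
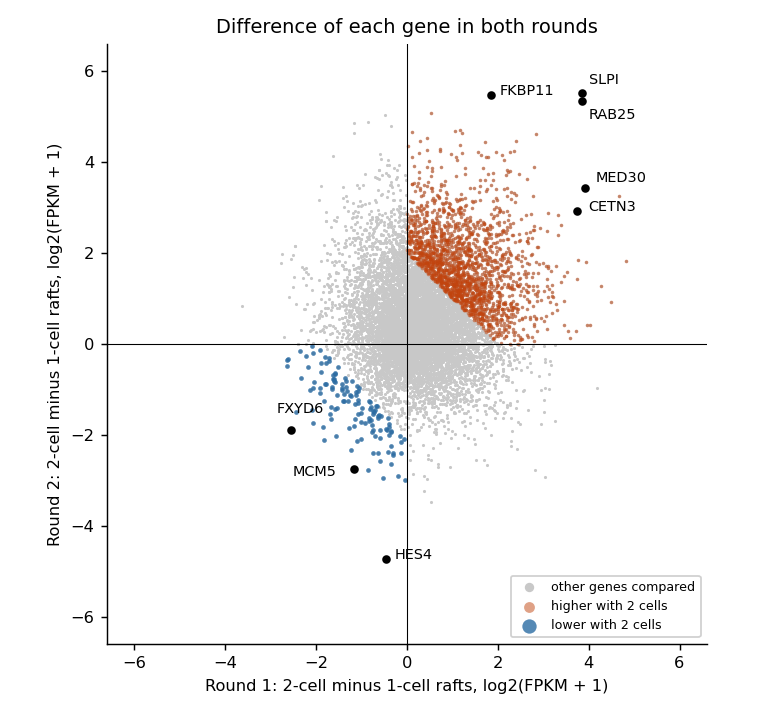
Each point is 1 of 10660 genes: its difference in round 1 (x axis) and in round 2 (y axis), 2-cell minus 1-cell rafts on log2(FPKM + 1). The cloud is centred above 0 on both axes and shows little slope (r = 0.07), with 2044 genes called higher (orange), 129 called lower (blue) and a few labelled genes at the edge.

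The called genes were of modest level in bulk RNA, a measure the rule did not use. The median bulk level was 9.98 FPKM for genes called higher, 5.99 FPKM for genes called lower and 7.92 FPKM for all genes compared. At 100 FPKM or more in bulk were 4.16% of the genes called higher and 1.55% of those called lower, against 10.8% of all genes compared. Genes called higher were detected in a median of 9 two-cell and 5 one-cell rafts, and genes called lower in 6 two-cell and 7 one-cell rafts. All genes compared had 9 and 6. Unlike the bulk level, detection in rafts comes from the same values as the rule, so it is no separate support. Transcript length, matched for at least 86.8% of each set, had medians of 1025, 1003.5 and 971.5 bases for the genes called higher, those called lower and all genes. Detection in at least 1 of the empty rafts or water libraries was seen for 22.2% of genes called higher, 28.7% of genes called lower and 29.9% of all. In C1 captures, 2 cells minus 1 cell, 61.1% of the 1780 raft-higher genes compared there were above 0, against 60.2% of all 9307 genes, and the median there was 0.28 over raft-higher genes, 0.32 over raft-lower genes and 0.22 over all (5 captures each).

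The largest differences were those of SLPI and RAB25, at 4.69 and 4.60. SLPI encodes a secreted inhibitor of leukocyte proteases made by mucosal epithelia. It ranged over 12.0 to 239 FPKM in 2-cell rafts (median 53.4), and was listed at 0 in 8 of 10 one-cell rafts, the others being at 11.3 and 111 FPKM. The groups overlapped in round 1 through that 1 raft and not in round 2. Its differences were 3.86 in round 1 and 5.52 in round 2, and 4.15 against averaged pairs. Bulk RNA held 166 to 813 FPKM of SLPI, and cells isolated instead on the C1 instrument, which traps them in microfluidic chambers, gave 39.0 to 3034 FPKM with 2 cells and 20.1 to 5292 FPKM with 1 cell (n = 5 captures each).

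RAB25 encodes an epithelial GTPase of recycling endosomes. Its level lay between 13.6 and 135 FPKM in 2-cell rafts (median 33.2), against 3.78 and 19.7 FPKM in 2 one-cell rafts and 0 in the other 8. All 2-cell rafts stood above all 1-cell rafts of their round. Differences were 3.84 in round 1 and 5.35 in round 2, and 4.33 against averaged pairs. In C1 captures RAB25 stood at 0 to 176 FPKM with 2 cells and at 16.8 to 423 FPKM with 1 cell (n = 5 each), and the difference there was -1.04.

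The other 8 genes at the top differed by 3.14 to 3.73 and were detected in all 10 two-cell rafts. FKBP11, a prolyl isomerase of the secretory pathway, ranged over 33.3 to 85.9 FPKM in 2-cell rafts, against 30.4 to 38.2 FPKM in 4 one-cell rafts of round 1, 1.19 FPKM in the fifth and 0 in all 5 of round 2. It did not overlap in either round, although 1 empty raft listed it at 79.7 FPKM. TSC22D3, a target of glucocorticoid signalling, stood at 10.6 to 112 FPKM in 2-cell rafts and was listed at 0 in 7 one-cell rafts, with 44.0 to 66.3 FPKM in the other 3. SNX10, a sorting nexin of endosomes, lay between 4.75 and 35.3 FPKM in 2-cell rafts, against 3.48 and 6.99 FPKM in 2 one-cell rafts and 0 in the rest.

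MED30 belongs to Mediator, the coactivator that links transcription factors to RNA polymerase II. It ranged over 20.7 to 145 FPKM in 2-cell rafts and over 0 to 57.2 FPKM in 1-cell rafts, where 6 of 10 were listed at 0. CETN3 (a centriole protein), ATXN3 (a deubiquitinase), CITED4 (a transcriptional coregulator) and NRBF2 (a regulator of autophagy) were detected in 3, 3, 5 and 5 one-cell rafts. ATXN3 was also detected in 2 empty rafts at up to 76.4 FPKM and in 1 water library at 39.7 FPKM, and CITED4 turned to -0.30 with the covariate. For these 4 genes and for MED30 and TSC22D3 the groups overlapped in both rounds. Each was thus present in some single cells at a level like that of 2-cell rafts and listed at 0 in others.

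A stricter rule of presence gave a short list. In all, 13 genes, 0.122% of those compared, were detected in all 10 two-cell rafts and in at most 2 one-cell rafts, and none the other way round. Beside SLPI, RAB25 and SNX10 they were MPV17L2, MFSD3, CCDC88C, CPOX, ADAP1, NDUFAF5, DUS4L, BAZ2A, C12orf5 and CALML4. Their differences ran over 1.65 to 4.69, and over 1.51 to 4.33 against averaged pairs. CPOX, an enzyme of haem synthesis, was detected in 1 one-cell raft and had 2.56, with 15.05 FPKM in bulk. With 5 one-cell rafts allowed the count was 232 genes, against 1 gene in the reverse direction.

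Genes lower in 2-cell rafts were fewer and their differences smaller. HES4, a repressor of the Hes family that Notch signalling can switch on, was detected in all 10 one-cell rafts at 2.76 to 57.8 FPKM, against 4 two-cell rafts at 3.39 to 26.8 FPKM. All 5 two-cell rafts of round 2 listed it at 0, against 12.0 to 48.8 FPKM in 1-cell rafts of that round. In round 1 the groups overlapped, and its differences were -0.47 in round 1 and -4.74 in round 2. FXYD6, a regulator of the sodium pump, ranged over 0 to 454 FPKM in 2-cell rafts (median 89.6), against 57.1 to 3594 FPKM in 1-cell rafts (median 155). Its difference was -2.22, with -2.56 in round 1 and -1.89 in round 2, but the rounds were unlike. In round 1 the median was 65.2 FPKM in 2-cell rafts, against 249.8 FPKM in 1-cell rafts. In round 2 the median was higher with 2 cells, 198 FPKM against 110.6 FPKM in 1-cell rafts. Only 3 of 5 two-cell rafts of round 2 detected FXYD6, and the rest listed it at 0. One 1-cell raft of round 1 held the value of 3594 FPKM, and the next highest was at 365 FPKM.

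MCM5, a subunit of the replicative helicase, ranged over 0 to 95.1 FPKM in 2-cell rafts (median 16.8), against 0.42 to 213 FPKM in 1-cell rafts (median 43.6), a difference of -1.95. RMI2, a partner of the BLM helicase, ranged over 0 to 44.7 FPKM in 2-cell rafts (median 14.1), against 43.6 to 118 FPKM in 9 one-cell rafts and 0 in the other. SMCO4 had -1.97, PANK3, a pantothenate kinase of coenzyme A synthesis, -1.81, and NUDCD3, a cofactor of dynein folding, -1.78. SLC2A4RG had -1.74, HBP1, an HMG-box repressor, -1.67, and ARID1A, a subunit of the SWI/SNF remodeller, -1.62. An empty raft held HBP1 at 539 FPKM. HES4 in round 2 was the 1 case among these 10 genes in which the groups did not overlap. In C1 captures, 2 cells minus 1 cell, these genes stood on both sides of 0, with MCM5 at -0.25 and FXYD6 at 1.82.

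**Figure D3:**
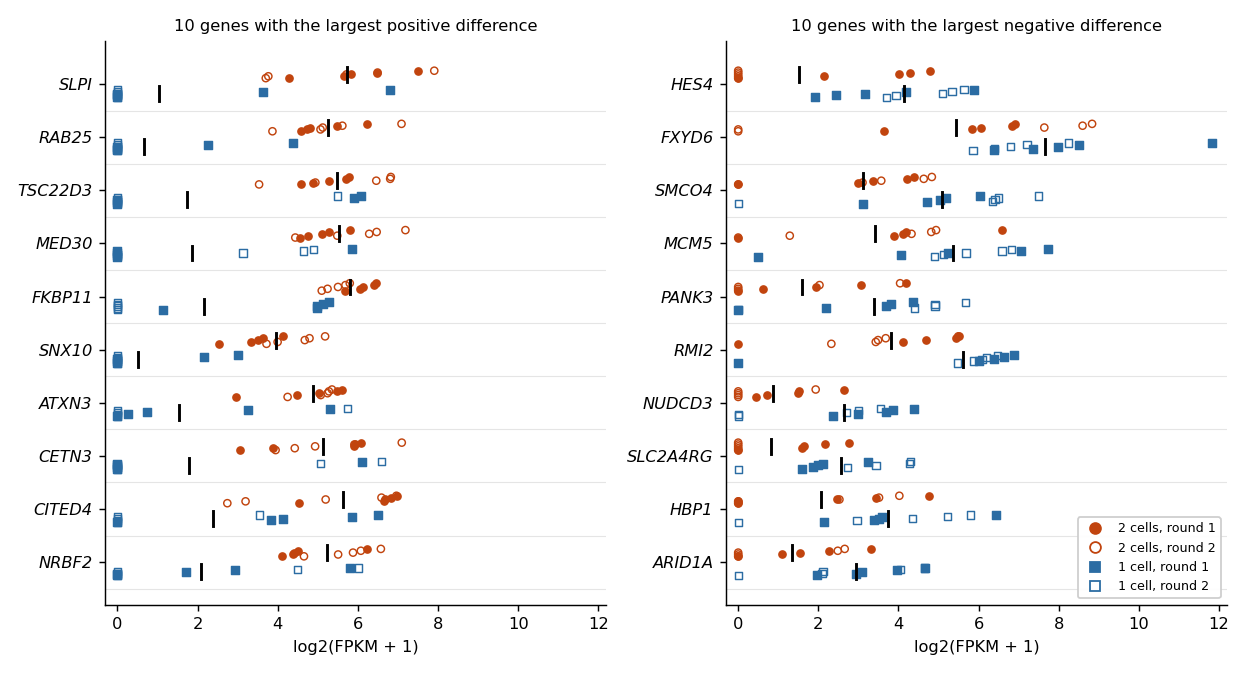
log2(FPKM + 1) in each raft for the 10 genes with the largest positive (left) and negative (right) averaged difference, with 2-cell rafts (circles) above 1-cell rafts (squares); filled symbols are round 1, open symbols round 2 and the black bar is the mean of 10 rafts. Genes on the left are present in every 2-cell raft and at 0 in 5 or more 1-cell rafts, while on the right the groups overlap except for HES4 in round 2.

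Among genes detected in all 20 rafts the differences did not rest on zeros. SERPINB5, the serpin maspin, ranged over 86.3 to 476 FPKM in 2-cell rafts (median 173), against 5.01 to 213 FPKM in 1-cell rafts (median 66.5), a difference of 1.92. The groups did not overlap in round 2. CD74, the invariant chain of MHC class II, ranged over 107 to 896 FPKM in 2-cell rafts (median 399.7), against 35.7 to 506 FPKM in 1-cell rafts (median 140.1), and had nearly the same difference in both rounds, 1.39 and 1.32. SDF2L1, a protein of the endoplasmic reticulum, ranged over 92.7 to 333 FPKM in 2-cell rafts, against 22.1 to 120 FPKM in 1-cell rafts, a difference of 1.40. RGS2, a regulator of G protein signalling, had 1.59, which turned to -0.04 with the covariate, and ANAPC16, a subunit of the anaphase-promoting complex, had 1.43. SERPINB5, RGS2 and CD74 also reached 765, 1501 and 179 FPKM in a water library, and ANAPC16 reached 346 FPKM in an empty raft and was detected in 3 of them. Their part in the result was not tested.

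Lower in 2-cell rafts among these genes were DERA, CAB39, VAT1, PPP2R2D and C11orf68. DERA, a deoxyribose phosphate aldolase, ranged over 9.71 to 55.1 FPKM in 2-cell rafts (median 33.04), against 32.5 to 119 FPKM in 1-cell rafts (median 76.0). Its differences were -1.30 in round 1 and -1.25 in round 2. CAB39, a scaffold of the kinase LKB1, ranged over 6.35 to 40.2 FPKM in 2-cell rafts, against 26 to 77.5 FPKM in 1-cell rafts, with no overlap in round 2. A water library held CAB39 at 758 FPKM. VAT1 had -1.12, with -1.11 and -1.12 in the rounds. PPP2R2D, a regulatory subunit of protein phosphatase 2A, had -1.27, and C11orf68 had -1.33.

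Gene lists for contact between cells came next, since contact is possible only where a raft has a second cell. Of 22 measured genes of adherens and tight junctions, 19 were above 0, and 5 were called higher (22.7%, against 19.2% of all genes) and none lower. Their median was 0.65, with 0.52 in round 1 and 0.73 in round 2, and 0.33 against averaged pairs, where all genes had 0.40 and 0.06, and it turned to -0.36 with the covariate. Counted over all 24 list genes with a row, a 2-cell raft held 14 to 23 detected members (mean 18.6), against 10 to 19 (mean 13.5) in a 1-cell raft. CLDN7, a claudin of the tight junction seal, was detected in 8 two-cell rafts at up to 77.3 FPKM, against 3 one-cell rafts at up to 23.9 FPKM, a difference of 2.41. MPP5, a polarity scaffold, ranged over 5.12 to 15.6 FPKM in 2-cell rafts, against 0 to 21.4 FPKM in 1-cell rafts, a difference of 1.29. CGN, encoding cingulin, was detected in 9 two-cell and 3 one-cell rafts. CDH1, the E-cadherin that holds adherens junctions together, was at 0 to 27.7 FPKM in 2-cell rafts (median 12.5), against 0 to 14.9 FPKM in 1-cell rafts (median 9.29), and its difference of 0.36 became 0.00 against averaged pairs. An empty raft held it at 69.8 FPKM.

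Desmosome and hemidesmosome genes had the highest median of any list against averaged pairs, 0.55. Of 14 measured, 12 were above 0, and 6 were called higher (42.9%) and none lower, with a median of 0.85 against 1-cell rafts. LAMA3, a laminin chain of the hemidesmosome's anchor, ranged over 8.64 to 420 FPKM in 2-cell rafts (median 75.9), against 0 to 125 FPKM in 1-cell rafts (median 20.7), a difference of 1.90. LAMB3, another laminin chain, had 1.43, and ITGA6, a laminin-binding integrin subunit, had 1.54, which turned to -0.03 with the covariate. The desmosomal cadherins DSC2 and DSG2 had 1.88 and 1.05. DSC2 was detected in 9 two-cell and 3 one-cell rafts. COL17A1, a collagen of hemidesmosomes, stood the other way, at -0.35 against 1-cell rafts and -1.13 against averaged pairs.

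Of 15 measured Notch pathway and gap junction genes, 6 were called higher (40.0%) and 1 lower, with a median of 0.85, of 0.23 against averaged pairs and of 0.00 with the covariate. Of the channel-forming connexins, GJB1 was listed at 0 in all 10 one-cell rafts and stood at 6.33 to 18.4 FPKM in 6 two-cell rafts. The Notch ligand JAG1 had 1.49, and the gamma-secretase subunits APH1A and NCSTN, which release the active part of the receptor, had 1.35 and 1.10. The Notch target HES1 was at 2.92 to 90.3 FPKM in 2-cell rafts (median 37.1), against 0 to 128 FPKM in 1-cell rafts (median 5.80), a difference of 2.39. HES4 stood the other way at -2.61. Both repressors thus met the size rule in opposite directions.

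The Hippo and YAP list lay at the level of all genes. Of 20 measured, 15 were above 0 and 4 were called higher, near the share of all genes, with a median of 0.41 and of 0.07 against averaged pairs. The calls were the YAP targets CYR61 and ANKRD1, the coagulation initiator F3 and the transcription factor TEAD4. CYR61 ranged over 5.73 to 131 FPKM in 2-cell rafts (median 61.9), against 0 to 198 FPKM in 1-cell rafts (median 32.5), where 3 were listed at 0. F3 ranged over 65.2 to 544 FPKM in 2-cell rafts (median 166), against 0 to 540 FPKM in 1-cell rafts (median 60.5), and reached 1064 FPKM in a water library. Against averaged pairs CYR61 had 0.48 and F3 1.31.

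The epithelial and ductal list differed between rounds. Of 26 measured, 23 were above 0 and 6 were called higher (23.1%), with medians of 0.37 in round 1 and 1.42 in round 2, and of 0.05 against averaged pairs of both rounds, and it turned to -0.50 with the covariate. Beside RAB25 the calls were CEACAM6, S100P, ESRP1, KRT7 and the protease inhibitor SPINT1. CEACAM6, an adhesion molecule of many carcinomas, ranged over 20.9 to 1231 FPKM in 2-cell rafts (median 205), against 0 to 2211 FPKM in 1-cell rafts (median 49.7). Its differences were 0.44 in round 1 and 4.52 in round 2, and a water library held it at 765 FPKM. S100P was detected in 6 two-cell and 2 one-cell rafts, and ESRP1, an epithelial splicing factor, in 6 two-cell rafts and 1 one-cell raft. With the covariate CEACAM6, S100P and ESRP1 turned to -2.03, -1.34 and -0.40.

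**Figure D4:**
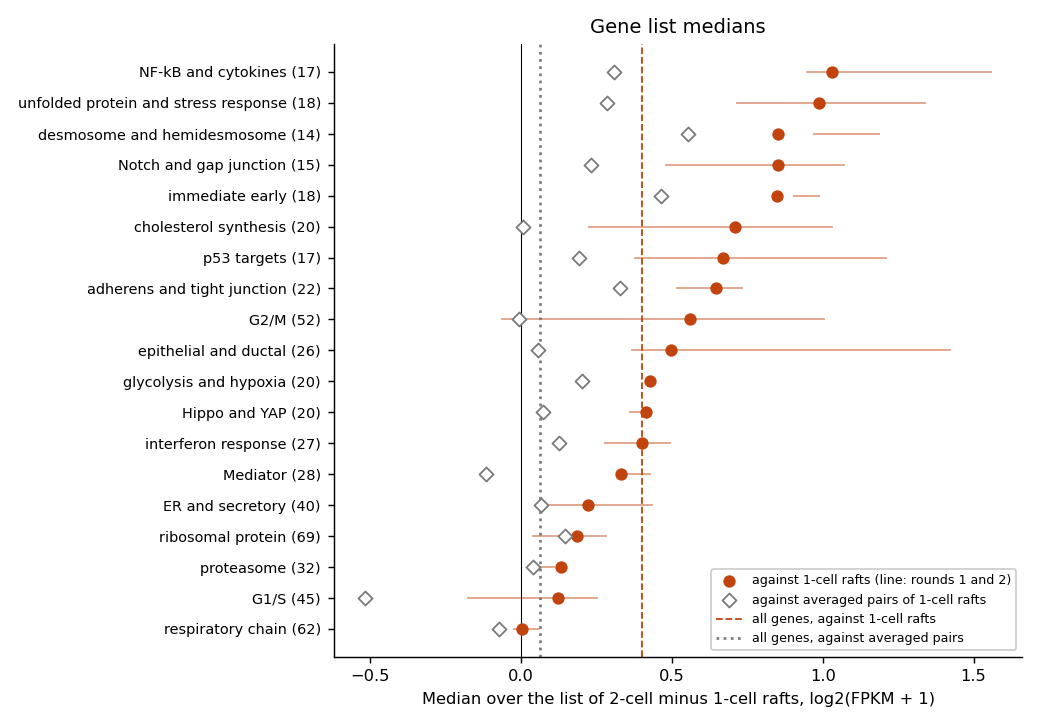
Median difference over the measured members of 19 gene lists (number measured in brackets), on log2(FPKM + 1). Orange points set 2-cell rafts against 1-cell rafts, thin lines join the medians of rounds 1 and 2, grey diamonds set 2-cell rafts against averaged pairs of 1-cell rafts, and vertical lines mark all genes at 0.40 and 0.06. The NF-kB list is highest at 1.03, and the G1/S list is lowest against averaged pairs at -0.52.

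NF-kB targets had the highest median of the 19 lists under the main settings, a rank that other settings changed. NF-kB is a dimeric transcription factor that waits in the cytoplasm bound to inhibitors such as the product of NFKBIA, and it drives cytokine genes once that inhibitor is degraded. It also drives NFKBIA itself, a feedback loop. Of 17 measured members, 16 were above 0 and 8 were called higher (47.1%) and none lower, with medians of 1.03 over both rounds, 0.95 in round 1 and 1.56 in round 2. In round 1 the G2/M list was above it at 1.01. With detection required in at least 10 of 20 rafts the NF-kB median was 0.91, against 0.99 for desmosome and hemidesmosome genes. Under quantile normalization it was 0.62, against 0.94 for the unfolded protein and stress response list. With no filter it was 0.81, against 0.83 for immediate early genes. With the covariate the NF-kB median turned to -0.30. Against averaged pairs the median was 0.31, and 2 of the 17 met the rule for higher, where all genes had 8.01%. The mean log2 level of the list per raft ranged over 2.17 to 4.46 in 2-cell rafts, against 0.59 to 5.16 in 1-cell rafts. Within round 2 it ranged over 2.17 to 3.95 in 2-cell rafts, against 0.59 to 1.90 in 1-cell rafts, with no overlap, and within round 1 over 2.94 to 4.46 in 2-cell rafts, against 2.30 to 5.16 in 1-cell rafts.

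The promoters of 3 called members are shown because they carry the sequence that NF-kB dimers bind. The sequences are from RefSeq on build GRCh38.p14, 300 bases each from 250 before the transcription start to 50 after it, with matches to GGNNNTTCC on either strand in capitals. They lie at chr4:73740319-73740618 on the plus strand for CXCL8, the current symbol of IL8, at chr4:73998628-73998927 on the minus strand for CXCL5, and at chr14:35404700-35404999 on the minus strand for NFKBIA.
CXCL8: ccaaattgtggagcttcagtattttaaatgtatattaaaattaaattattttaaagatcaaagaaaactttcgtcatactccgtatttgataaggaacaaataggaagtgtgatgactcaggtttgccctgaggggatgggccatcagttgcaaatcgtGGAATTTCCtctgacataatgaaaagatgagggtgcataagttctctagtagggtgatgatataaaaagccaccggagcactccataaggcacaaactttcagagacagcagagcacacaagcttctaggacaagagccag
CXCL5: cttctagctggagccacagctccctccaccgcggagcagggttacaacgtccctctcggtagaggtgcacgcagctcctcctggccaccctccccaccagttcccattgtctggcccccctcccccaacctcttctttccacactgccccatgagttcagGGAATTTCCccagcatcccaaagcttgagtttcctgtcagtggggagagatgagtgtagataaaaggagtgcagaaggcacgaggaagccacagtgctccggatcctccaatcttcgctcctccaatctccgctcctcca
NFKBIA: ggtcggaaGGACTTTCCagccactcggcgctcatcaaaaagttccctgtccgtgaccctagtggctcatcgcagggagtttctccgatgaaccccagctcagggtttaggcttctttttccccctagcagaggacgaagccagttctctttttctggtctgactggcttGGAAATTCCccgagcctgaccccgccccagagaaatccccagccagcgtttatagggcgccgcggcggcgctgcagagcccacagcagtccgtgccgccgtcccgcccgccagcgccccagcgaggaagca

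CXCL8 and CXCL5 carry the same 9 letters, beginning 91 and 90 bases before the start, and NFKBIA carries 2 other matches, beginning 242 and 81 bases before it. Of the 17 measured list members 15 had a promoter in the table, and 13 of these (86.7%) held a match, against 20.1% of all 35116 promoters. The list was made of known NF-kB targets, so this share describes the list and not the difference between rafts. Of the immediate early genes, 13 had a promoter in that table, and a match was found in 2 of them (15.4%). A match is a run of letters and not a measured binding site.

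The values of these genes were uneven between single cells. IL8, a chemokine for neutrophils, was detected in 9 two-cell rafts at 3.36 to 116 FPKM, against 4 one-cell rafts at 7.16 to 118 FPKM, a difference of 1.79. CXCL5, a related chemokine, was detected in 9 two-cell rafts at 2.70 to 149.9 FPKM, against 4 one-cell rafts at 1.69 to 40.1 FPKM, a difference of 2.15. CSF2, a growth factor for myeloid cells, reached 201 FPKM in 2-cell rafts and was listed at 0 in 2 of them, against a highest value of 269 FPKM in 1-cell rafts, where 7 were listed at 0. NFKBIA ranged over 40.1 to 208 FPKM in 2-cell rafts (median 124), against 0 to 434 FPKM in 1-cell rafts (median 75.5). Its difference was 0.10 in round 1 and 4.10 in round 2, where 3 of 5 one-cell rafts listed it at 0. The same 1-cell raft of round 1 held the highest single-cell value of IL8, CXCL5, CSF2 and NFKBIA. IL6 was listed at 0 in all 10 one-cell rafts and was detected in 5 two-cell rafts. IL8, CXCL5, CSF2 and NFKBIA turned to -0.46, -0.07, -0.19 and -0.30 with the covariate.

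Immediate early genes, which are switched on within minutes of a stimulus, stood second against averaged pairs with a median of 0.46. Of 18 measured, 17 were above 0 and 6 were called higher (33.3%), with a median of 0.85. IER2 ranged over 5.12 to 77.1 FPKM in 2-cell rafts (median 18.5), against 0 to 50.2 FPKM in 1-cell rafts, where 5 of 10 were detected, a difference of 2.48. DUSP6, a phosphatase of ERK and a feedback inhibitor of that kinase, had 2.20, IER3 had 1.77 and MCL1, an inhibitor of apoptosis, had 1.88. MCL1 ranged over 25.7 to 94.1 FPKM in 2-cell rafts, against 0 to 68.5 FPKM in 1-cell rafts. FOS was detected in 5 two-cell rafts and 1 one-cell raft, and KLF4 in 7 two-cell and 2 one-cell rafts. Of 17 measured p53 targets 16 were above 0 and 5 were called higher (29.4%), with a median of 0.67 that turned to -0.28 with the covariate. GDF15, a stress cytokine, was detected in 8 two-cell rafts at up to 97.2 FPKM, against 2 one-cell rafts at 8.87 and 71.3 FPKM, and PLK3, a stress kinase, in 9 two-cell and 3 one-cell rafts. With the covariate DUSP6 turned to -0.09 and PLK3 to -1.40.

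The unfolded protein response adjusts the folding capacity of the endoplasmic reticulum, and the integrated stress response turns on amino acid synthesis. Of 18 measured genes of both, 16 were above 0, and 8 were called higher (44.4%) and none lower, with a median of 0.99 and of 0.28 against averaged pairs. ASNS, asparagine synthetase, ranged over 11.3 to 109.6 FPKM in 2-cell rafts (median 78.5), against 0 to 70.8 FPKM in 1-cell rafts (median 22.8), a difference of 2.17. MANF, a secreted protein of stressed endoplasmic reticulum, ranged over 9.58 to 136 FPKM in 2-cell rafts (median 61.1), against 0 to 52.7 FPKM in 1-cell rafts (median 28.6), a difference of 2.11. The serine synthesis enzyme PSAT1 had 1.77, which turned to -3.02 with the covariate, and the sensor ATF6 had 1.57, with no overlap between groups for ATF6 in round 2 and 57.1 FPKM of it in an empty raft. HERPUD1 and TRIB3 had 1.03 and 1.11, and 0.33 and 0.20 against averaged pairs.

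In the wider secretory pathway the differences were smaller. Of 40 measured 34 were above 0 and 6 were called higher (15%), near the 19.2% of all genes. The median was 0.22, and 0.06 against averaged pairs. SEC61A1, the pore through which proteins enter the endoplasmic reticulum, ranged over 13.4 to 113 FPKM in 2-cell rafts (median 57.5), against 0 to 91.6 FPKM in 1-cell rafts (median 30.6), a difference of 1.56. CALR, a chaperone of glycoproteins, ranged over 1.83 to 62.2 FPKM in 2-cell rafts (median 26.4), against 0 to 80.3 FPKM in 1-cell rafts (median 8.12), and reached 245 FPKM in an empty raft. PDIA3, TMED9 and the receptor gene KDELR3 had 1.32, 1.09 and 1.43. With the covariate the median turned to -0.07, and SEC61A1, CALR and KDELR3 to -1.33, -0.69 and -0.66.

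Genes of the ribosome and the proteasome differed little. None of 69 ribosomal protein genes and none of 32 proteasome genes met the size rule, with medians of 0.19 and 0.13. All members of both were detected in each of the 20 rafts. Few genes of that kind met the rule at all: of 1779, 20 were called higher and 12 lower, with a median of 0.11. RPL32 had the largest ribosomal difference, 0.63, with 169 to 324 FPKM in 2-cell rafts, against 47.5 to 331 FPKM in 1-cell rafts. PSMB4, a proteasome subunit, stood at -0.64, with -0.57 and -0.72 in the rounds. Water libraries held RPL32 and PSMB4 at up to 7329 and 2352 FPKM. Nuclear genes of the respiratory chain were balanced, with 31 of 62 above 0 and a median of 0.00, and 4 were called higher (6.45%): UQCRC2, SDHC, NDUFS1 and NDUFA10. UQCRC2 ranged over 39.3 to 80.9 FPKM in 2-cell rafts, against 0 to 152 FPKM in 1-cell rafts, where 3 were listed at 0. It reached 105.4 FPKM in an empty raft and 159 FPKM in a water library. Whether a listed 0 meant that the transcript was absent was not tested. Mediator had 6 of 28 called higher (21.4%) and a median of 0.33, which was -0.12 against averaged pairs.

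Cell cycle genes differed more between rafts than between groups. The mean log2 level of 45 G1/S and DNA replication genes ranged over 1.84 to 5.76 in 2-cell rafts, against 1.36 to 5.81 in 1-cell rafts. For 52 G2/M and mitosis genes it ranged over 1.99 to 6.69 in 2-cell rafts, against 1.83 to 6.80 in 1-cell rafts. One 2-cell raft and 1 one-cell raft, both of round 1, were low in both lists. In round 2 the SD of the G2/M level was 0.79 in 2-cell rafts and 1.57 in 1-cell rafts, while in round 1 it was 1.97 in 2-cell rafts and 1.55 in 1-cell rafts.

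Of the G2/M genes 43 were above 0 and 15 were called higher (28.8%), with medians of 0.56 over both rounds, 1.01 in round 1 and -0.06 in round 2. Against averaged pairs the median was -0.01 and 2 were higher and 3 lower. CCNB2, a mitotic cyclin, ranged over 0.78 to 421 FPKM in 2-cell rafts (median 88.5), against 0 to 257 FPKM in 1-cell rafts (median 66.0), a difference of 1.80. The kinetochore gene NUF2 had 2.10 and the mitotic kinesin KIF2C had 1.86. MKI67, the proliferation antigen, ranged over 1.44 to 33.5 FPKM in 2-cell rafts, against 0 to 43.1 FPKM in 1-cell rafts, a difference of 1.18 that was 0.48 against averaged pairs. CDK1, the mitotic kinase, had -0.87. It was listed at 0 in 2 two-cell rafts and reached 459 FPKM in others, against 19.9 to 455 FPKM in 1-cell rafts. Water libraries held NUF2, CDK1 and MKI67 at up to 1096, 1055 and 176 FPKM, and their part in the result was not tested.

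The G1/S list was the lowest of the 19 against averaged pairs, with a median of -0.52. Averaging before the log lowers a difference more where 1-cell rafts differ more. The pooled SD of the list's median between rafts was 1.34, against 1.45 for G2/M genes and 0.985 for NF-kB targets. The part of this spread in the rank was not tested. Of the 45 G1/S genes 25 were above 0 against single 1-cell rafts, with a median of 0.12. Of these 45, 3 were called higher (6.67%) and 4 lower, where all genes had 1.21% lower. The 4 were the helicase subunits MCM2 and MCM5, the licensing factor CDT1 and the cyclin CCNE2, at -1.08, -1.95, -1.18 and -1.03. Against averaged pairs 11 of the 45 met the rule for lower, where all genes had 5.04%, and none for higher. Among the 11 were E2F1, RFC2, RFC4, EXO1 and UNG, genes of S phase entry, replication and repair. The 3 called higher were TYMS, the thymidylate synthase, at 1.86, TIPIN, a fork protection factor, at 1.47, and PRIM1, a primase subunit, at 1.41. The list's median against single 1-cell rafts was -0.18 in round 1 and 0.25 in round 2, and it turned to -0.88 with the covariate and to -0.04 under quantile normalization.

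**Figure D5:**
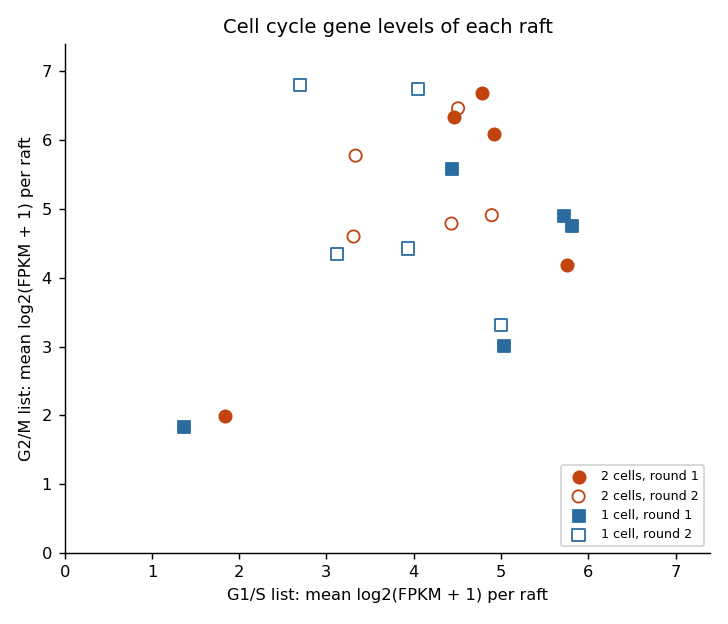
Mean log2(FPKM + 1) over 45 G1/S genes (x axis) and 52 G2/M genes (y axis) in each raft; circles are 2-cell rafts, squares 1-cell rafts, filled symbols round 1 and open symbols round 2. Both groups spread over the same range, and 1 raft of each kind sits apart near 1.84 and 1.99 (2 cells) and 1.36 and 1.83 (1 cell).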

How the data were processed

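Per the labels, cDNA from each raft was sequenced as 1 library. The authors deposited 1 table of FPKM values, with 30504 rows and 120 columns. RSEM and the hg19 build come from the submitters' processing notes, and their version, annotation and counting settings are not given in the sources used here. RSEM shares reads among near-identical genes, so paralogs are uncertain. No counts were used, so depth is unknown and no interval or floor can be given. The unit was checked on the values, and the scripts were tested on simulated data.

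Rafts were grouped by the labels for cell number and by the column names for round. Differences of mean log2(FPKM + 1), 2-cell minus 1-cell, were taken within each round and averaged, for 10660 rows at FPKM 1 or more in at least 5 rafts. Each group counts as 1 sample, so no p-value is given. The members and gene lists were chosen with earlier results of these data known.

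Genes were named by rule: the 10 highest and 10 lowest differences with detection in 3 of 5 rafts of the higher group in each round, the 5 highest and 5 lowest detected in all 20 rafts, up to 4 a list, and a few markers. Other names are list members given beside them after their values were seen. Genes with no row are not analysed here, and a few members that the rule picked are not reported. Names were matched to RefSeq for 21849 of 27118. Alternatives were the pseudocount, filters, rescaling, quantile normalization, a detection covariate, averaged pairs, single rounds and leaving out each raft. Figures were drawn with matplotlib 3.10.9, and values computed in Python 3.11.15 with scipy 1.17.1, numpy 2.4.6 and pandas 2.3.3.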

Additional observations from a re-analysis of the deposited data

Results flagged for a closer look

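Within each group of 10 rafts, single values far from the others were sought for 108 named genes by the gap to the nearest value over the whole range, against Dixon's critical value. The same was done for the number of genes detected and for rho with bulk RNA, and 1 group listed at 0 throughout was left out. Of 219 groups in all 20 had such a raft. The chance rate of about 1 in 20 groups assumes values of a single normal distribution. These groups pool both rounds and many hold zeros, so the count is not read against that rate.

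Among 2-cell rafts, 5 values stood far below the rest at 0. Replicate 4 listed NUF2 and KIF2C at 0, against 12.8 to 115 FPKM and 7.42 to 38.1 FPKM in the others, and this raft was also the lowest in the G1/S and G2/M lists. Replicate 8 listed PSAT1 at 0 (others 13.9 to 145 FPKM), replicate 10 listed MED24 at 0 (others 5.31 to 47.4 FPKM) and replicate 7 listed ADM at 0 (others 9.84 to 84.8 FPKM). Low values above 0 were ATXN3 at 6.81 FPKM in replicate 5, CYR61 at 5.73 FPKM in replicate 9, NDUFS1 at 5.56 FPKM in replicate 10, NDUFA10 at 8.44 FPKM in replicate 6, PDGFRA at 13.2 FPKM in replicate 9 and KRT10 at 61.4 FPKM in replicate 1. PFKL was the 1 high value, at 25.04 FPKM in replicate 5.

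Among 1-cell rafts, replicate 3 stood apart for 4 genes. It held SLPI at 111 FPKM (others 0 to 11.3 FPKM) and FXYD6 at 3594 FPKM (others 57.1 to 365 FPKM), and MCM5 at 0.42 FPKM (others 15.7 to 213 FPKM) and RMI2 at 0 (others 43.6 to 118 FPKM). This raft was also the lowest 1-cell raft in the G1/S and G2/M lists. The other values were RAB25 at 19.7 FPKM and INADL at 5.68 FPKM in replicate 5, ESRP1 at 7.84 FPKM in replicate 1 and PSMB4 at 55.5 FPKM in replicate 7.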

How the results depend on the processing

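No paired analysis was possible because each group counts as 1 sample and no test was made. With a pseudocount of 0.1 the median became 0.88, with 4068 genes higher and 259 lower, and a covariate for detected genes made it -0.057, with 2391 lower. Averaged pairs gave a median of 0.063, 854 higher, 537 lower, 484.7 more genes detected at 1 FPKM and a rho difference of 0.0261. Round 1 alone gave 571 lower and a spread ratio of 0.640, and round 2 alone 3345 higher, 509 lower and 0.636. Counts with the covariate or in a single round rest on size alone, without the same-sign condition. A size of 2 left 304 higher and 2 lower. Quantile normalization gave 292 lower, 1204.5 more genes and a spread ratio of 0.631, and floors of 5 and 20 FPKM gave 995.6 and 60.6 more genes. Leaving out each raft gave medians of 0.37 to 0.45, 1954 to 2288 higher, 116 to 174 lower, 11 to 13 of 19 lists above the median of all genes, 1958 to 2260 more genes, rho differences of 0.0941 to 0.111 and spread ratios of 0.569 to 0.640. Without 1-cell replicate 9 and 2-cell replicate 8, chosen after seeing the data, the spread ratio was 0.585. The causes were not tested. With the covariate 20 of 108 named genes turned to negative: CITED4 -0.30, RGS2 -0.041, ITGA6 -0.031, CEACAM6 -2.03, S100P -1.34, ESRP1 -0.40, SEC61A1 -1.33, KDELR3 -0.66, CALR -0.69, PSAT1 -3.02, CXCL5 -0.070, NFKBIA -0.30, CSF2 -0.19, IL8 -0.46, DUSP6 -0.086, PLK3 -1.40, ISG15 -1.44, ENO2 -0.23, SQLE -1.36 and STX17 -0.69. Of the 108 named genes, none that met the size rule turned under the other settings run. That rule asks for the same sign in both rounds, so the single rounds could not turn a called gene. A gene chosen for a large difference is also unlikely to turn when 1 raft is left out. Unknown depth limits every value of a low gene.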

Other observations

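Interferon-stimulated genes, made in response to viral RNA and interferons, lay at the level of all genes, with 4 of 27 called higher (14.8%) and a median of 0.40. IFI6, an interferon-induced protein, was detected in 8 two-cell rafts at 10.3 to 74.3 FPKM, against 3 one-cell rafts at 27.8 to 36.0 FPKM, a difference of 2.17. ISG15 had nearly equal medians, 122 FPKM in 2-cell rafts and 119 FPKM in 1-cell rafts, and its difference of 1.20 was 0.12 against averaged pairs, since 2 one-cell rafts listed it at 0. Among 20 genes of glycolysis and hypoxia 3 were called higher (15%), near the 19.2% of all genes. The list's median of 0.43 turned to -0.22 with the number of detected genes as a covariate. ADM, a vasodilator peptide induced by low oxygen, was detected in 9 two-cell rafts at 9.84 to 84.8 FPKM, against 2 one-cell rafts at 23.7 and 84.6 FPKM. P4HA1, a collagen hydroxylase, had 2.18 and ENO2, an enolase, had 1.82.

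Of 20 genes of cholesterol synthesis 17 were above 0 and 4 were called higher, near the 19.2% of all genes. The list's median was 0.71, and 0.01 against averaged pairs, where all genes had 0.40 and 0.06. NSDHL, an enzyme of late cholesterol synthesis, ranged over 7.92 to 49.5 FPKM in 2-cell rafts, against 0 to 96.01 FPKM in 1-cell rafts, where 6 were listed at 0. HMGCS1, an enzyme of the mevalonate pathway, ranged over 1.51 to 25 FPKM in 2-cell rafts, against 0 to 15.6 FPKM in 1-cell rafts.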
